A study of Homo sapiens with 16 samples.

Results

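The ribosomal protein genes encode the proteins that, with the rRNAs, build the cytosolic ribosome. Members were taken from the GENCODE annotation of the human genome build hg19 as autosomal protein-coding genes whose symbol is RPL or RPS, then digits, then at most 1 A or X. That rule gave 69 of 19229 autosomal protein-coding genes, 40 of them named RPL (large subunit) and 29 named RPS (small subunit). Another 4 genes with such symbols lie on the X chromosome and were kept for comparison only. The rule used names alone and no measured value.

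Histone marks were profiled by CUT&Tag, in which an antibody tethers a transposase to the marked nucleosomes, in BE2C, a MYCN-amplified human neuroblastoma cell line. In the first experiment, cells were transfected for 72 h with a control siRNA (siCtrl) or with 1 siRNA against the H3K27 demethylase KDM6B (siKDM6B33). In the second, cells were kept for 72 h in 0.1% DMSO or in 2.5 μM GSK-J4, a cell-permeable prodrug of a KDM6 inhibitor. Each condition had 2 libraries for H3K4me1 and 2 for H3K27me3, 16 libraries in all. No expression values were used here, so the extent of the knockdown was not checked.

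Ribosomal proteins are made in large and matched amounts, and the genes for them are among the most active housekeeping genes of a growing cell. Their messages begin with a C followed by a run of pyrimidines, the 5′ terminal oligopyrimidine tract, through which growth signals acting on mTOR control translation. Active starts usually carry H3K4me3 over the start itself, with H3K4me1 on the shoulders. H3K4me1 is otherwise best known from enhancers, and H3K27me3 from genes silenced by Polycomb complexes.

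The start is shown here for 9 members, as the 45 bases before the annotated start and the first 15 bases of exon 1, because the tract is a feature that most members share at the windows analysed below. They are RPL3 (chr22:39715614-39715673, minus strand), RPL5 (chr1:93297552-93297611, plus), RPL11 (chr1:24018251-24018310, plus), RPL13A (chr19:49990820-49990879, plus), RPL22 (chr1:6259641-6259700, minus), RPS3 (chr11:75110517-75110576, plus), RPS6 (chr9:19380220-19380279, minus), RPS14 (chr5:149829288-149829347, minus) and RPS27A (chr2:55459779-55459838, plus), all in hg19. Each line runs 5′ to 3′ on the strand of the gene. Capitals mark the longest run of C and T that touches the 5 bases on either side of the start.
RPL3: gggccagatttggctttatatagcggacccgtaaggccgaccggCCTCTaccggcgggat
RPL5: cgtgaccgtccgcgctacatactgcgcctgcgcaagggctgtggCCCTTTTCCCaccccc
RPL11: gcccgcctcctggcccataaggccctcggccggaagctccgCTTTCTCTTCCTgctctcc
RPL13A: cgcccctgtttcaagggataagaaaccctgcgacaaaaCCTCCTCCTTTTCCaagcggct
RPL22: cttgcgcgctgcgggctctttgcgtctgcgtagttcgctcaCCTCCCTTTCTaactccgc
RPS3: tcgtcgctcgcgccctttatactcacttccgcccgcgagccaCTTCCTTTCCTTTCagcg
RPS6: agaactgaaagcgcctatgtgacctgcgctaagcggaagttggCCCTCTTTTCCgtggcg
RPS14: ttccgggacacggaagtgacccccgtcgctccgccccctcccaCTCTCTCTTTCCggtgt
RPS27A: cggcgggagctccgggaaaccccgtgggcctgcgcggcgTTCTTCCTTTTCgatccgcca

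A run of at least 8 pyrimidines touched the start in 58 of the 69 members (84.1%), against 11.1% of all autosomal protein-coding genes. The start base was C with 4 pyrimidines after it in 51 members (73.9%) and in 4.53% of all genes. From 250 bases before the start to 50 after it, the median GC content was 59.3% in members and 63.7% over all genes, and the median ratio of observed to expected CpG was 0.915 against 0.778. The words TATAAA or TATAAG lay in the 40 bases before the start, on the strand of the gene, in 7 members (10.1%) and in 5.67% of all genes. Members were short, with a median length of 5548 bp from first to last annotated base against 27568 bp, so a flank reaching 5 kb past the start ran beyond the end of 33 of the 69 genes. Small nucleolar RNAs lay inside 25 members, 55 of them in total, and 16 members had the start of another protein-coding gene within 1 kb, from which an island at the start cannot be told apart.

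Islands and narrow peaks describe each member in each library, both read from the deposited peak lists. An island is a broad enriched stretch called by SICER in steps of 200 bp, and the start window reaches 1 kb to each side of the start, 2 kb in all. A member counted as marked when an island overlapped its window by at least 1 bp, and the covered percent of the window gives the extent. The flanks ran from 1 to 5 kb upstream and downstream. Narrow peaks are the short intervals called by MACS2 in the same libraries. No read counts were used, so the depth behind a window is unknown and only the background of each library, solved from its narrow peaks, stands in for it.

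At 6 members the lists held no island of either mark within 20 kb of the start in any of the 16 libraries, with the nearest between 29.8 kb and 177 kb away. RPL7A, RPS9, RPS18, RPS19 and RPS25 are among them. All other members had an island within 35 bp of the start in at least 1 library. The stretches around these named genes take in neighbouring genes as well, and H3K4me1 and H3K27me3 at these 6 starts are not analysed here. They stay in the denominator of 69 and enter the means at 0%, which lowers every share and mean given over the 69. Over the other 63 members the shares with an H3K4me1 start island were 30.2% and 30.2% in siCtrl and 98.4% and 96.8% after knockdown. Over all genes, 3615 of 19229 had no island within 20 kb, and the other 15614 went from 31.2% and 31.7% to 73.1% and 73.1%. The 20 kb rule counts islands of the knockdown libraries too, so a start can be kept because it is marked there. The shares after knockdown among the genes kept are therefore partly set by the rule.

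The cell line was checked at lineage genes. MYCN and PHOX2A carried an H3K4me1 island at the start in all 8 libraries, while PTPRC and ALB, markers of blood and liver, carried one in 0 of 8. GATA3 carried one in 6 libraries, ISL1 in 3 and HAND2 in 2, and the muscle gene MYOD1 in 5. One library stood apart. The first GSK-J4 library for H3K27me3 held 16676 islands with a median width of 3000 bp, where the other 3 H3K27me3 libraries of that experiment held 7175 to 8006 islands with medians of 6600 to 7400 bp.

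After knockdown of KDM6B, H3K4me1 islands lay at most ribosomal protein gene starts. The mark lay in the start window of 19 and 19 of 69 members in the siCtrl libraries and of 62 and 61 in the siKDM6B33 libraries. That is 27.5% in both controls and 89.9% and 88.4% after knockdown. Over all autosomal protein-coding genes the shares went from 25.4% and 25.7% to 59.4% and 59.4%. In controls the ribosomal protein genes therefore lay close to the average gene, and after knockdown above it.

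**Figure D1:**
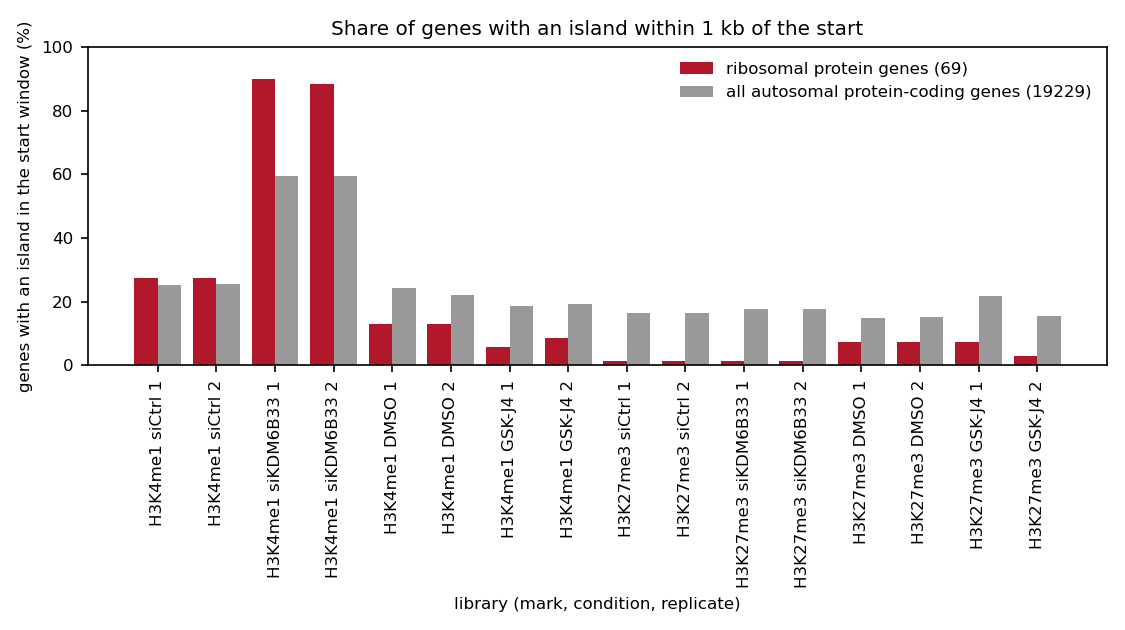
Share of genes with an island in the start window in each of the 16 libraries, in percent. Red bars are the 69 ribosomal protein genes and grey bars all 19229 autosomal protein-coding genes. The red bars reach 89.9% and 88.4% in the siKDM6B33 libraries for H3K4me1 and lie under the grey bars in the compound libraries and in every H3K27me3 library.

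A gain was called when both treated libraries and neither control held an island in the window, and a loss when the reverse held. After knockdown, 38 of 69 members (55.1%) gained H3K4me1, where 31.2% of all genes did, and 0 members lost it, where 0.692% of all genes did. The remaining members were 16 with an island in all 4 libraries, 6 with an island in 1 control and both knockdown libraries, 3 with an island in 1 knockdown library alone, and the 6 starts not analysed here. Leaving out all genes with no island within 20 kb gave 38 of 63 members (60.3%) against 38.4% of all genes, shares that the 20 kb rule partly sets. By covered percent, both knockdown values lay above both control values at 49 members (71%), against 39.5% of all genes, and below them at 0 members, against 1.28% of all genes.

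The mean covered share of the window over the members was 22.6% ± 0.835 (SD, n = 2) in siCtrl and 81.6% ± 0.108 (SD, n = 2) after knockdown. The per-library values were 23.2% and 22% in siCtrl and 81.5% and 81.7% after knockdown, so the groups did not overlap. The mean over all genes was 21.9% in both controls and 53.8% and 53.7% after knockdown. With 2 libraries against 2, the exact permutation test cannot return a p below 0.333, so no single difference could pass a threshold of 0.05. The study describes the libraries of a condition as biological replicates, and the labels do not say whether they came from separate cultures.

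By genome background the knockdown libraries were the deeper ones, with 0.107 and 0.105 tags against 0.0902 and 0.0849 in siCtrl. Their islands covered 115 and 114 Mb, against 103 and 98.6 Mb. When each list was cut to the same covered length, 98.6 Mb, highest scores first, the members with a start island were 16 and 19 in siCtrl and 61 and 61 after knockdown. Gains then numbered 39 members, and 24.9% of all genes. The part that depth plays in what remains was not tested.

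Among the 9 members whose sequences are printed above, 6 gained the mark. RPL11, which together with RPL5 and the 5S rRNA binds MDM2 when ribosome assembly fails, was covered over 0% and 0% of its window in siCtrl and over 74.8% and 74.8% after knockdown. RPS6, the small-subunit protein phosphorylated by the S6 kinases, went from 0% and 0% to 88.3% and 68.3%. The groups were apart at both genes, by 74.8 and 78.3 percentage points.

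RPL22, an RNA-binding protein of the large subunit, was covered over 0% and 0%, then 100% and 97.3%. RPS27A, which encodes ubiquitin fused to a small-subunit protein, was covered over 0% and 0%, then 91.2% and 100%. RPL13A, which in myeloid cells also acts in a complex that silences messages, went from 0% and 0% to 73.2% and 93.2%. Each of these had no control island and a knockdown island over most of the window.

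RPS14, the small-subunit gene tied to the anaemia of the 5q deletion, went from 0% and 0% to 65% and 95%. RPL5 was marked in 1 library alone, with 0% and 0% in siCtrl and 0% and 79.8% after knockdown, so its groups overlapped. RPL3, a protein at the peptidyl transferase centre, had 98.7% and 0% in siCtrl and 88.7% and 98.7% after knockdown. RPS3, at the entry of the mRNA channel, had 0% and 98%, then 78% and 100%, and the groups of both genes overlapped as well.

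Of the 38 members that gained the mark, 10 were covered over the whole window in both knockdown libraries: RPL4, RPL9, RPL15, RPL30, RPL34, RPL37A, RPS12, RPS16, RPS21 and RPS28. The lowest value in any knockdown library among the 38 was 48.3%, at RPL17, and the median of their mean coverage was 91.7%. In the compound experiment 0 of the 38 carried an H3K4me1 start island in any of its 4 libraries, as held for 86.6% of the 5997 genes at large that gained the mark after knockdown.

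**Figure D2:**
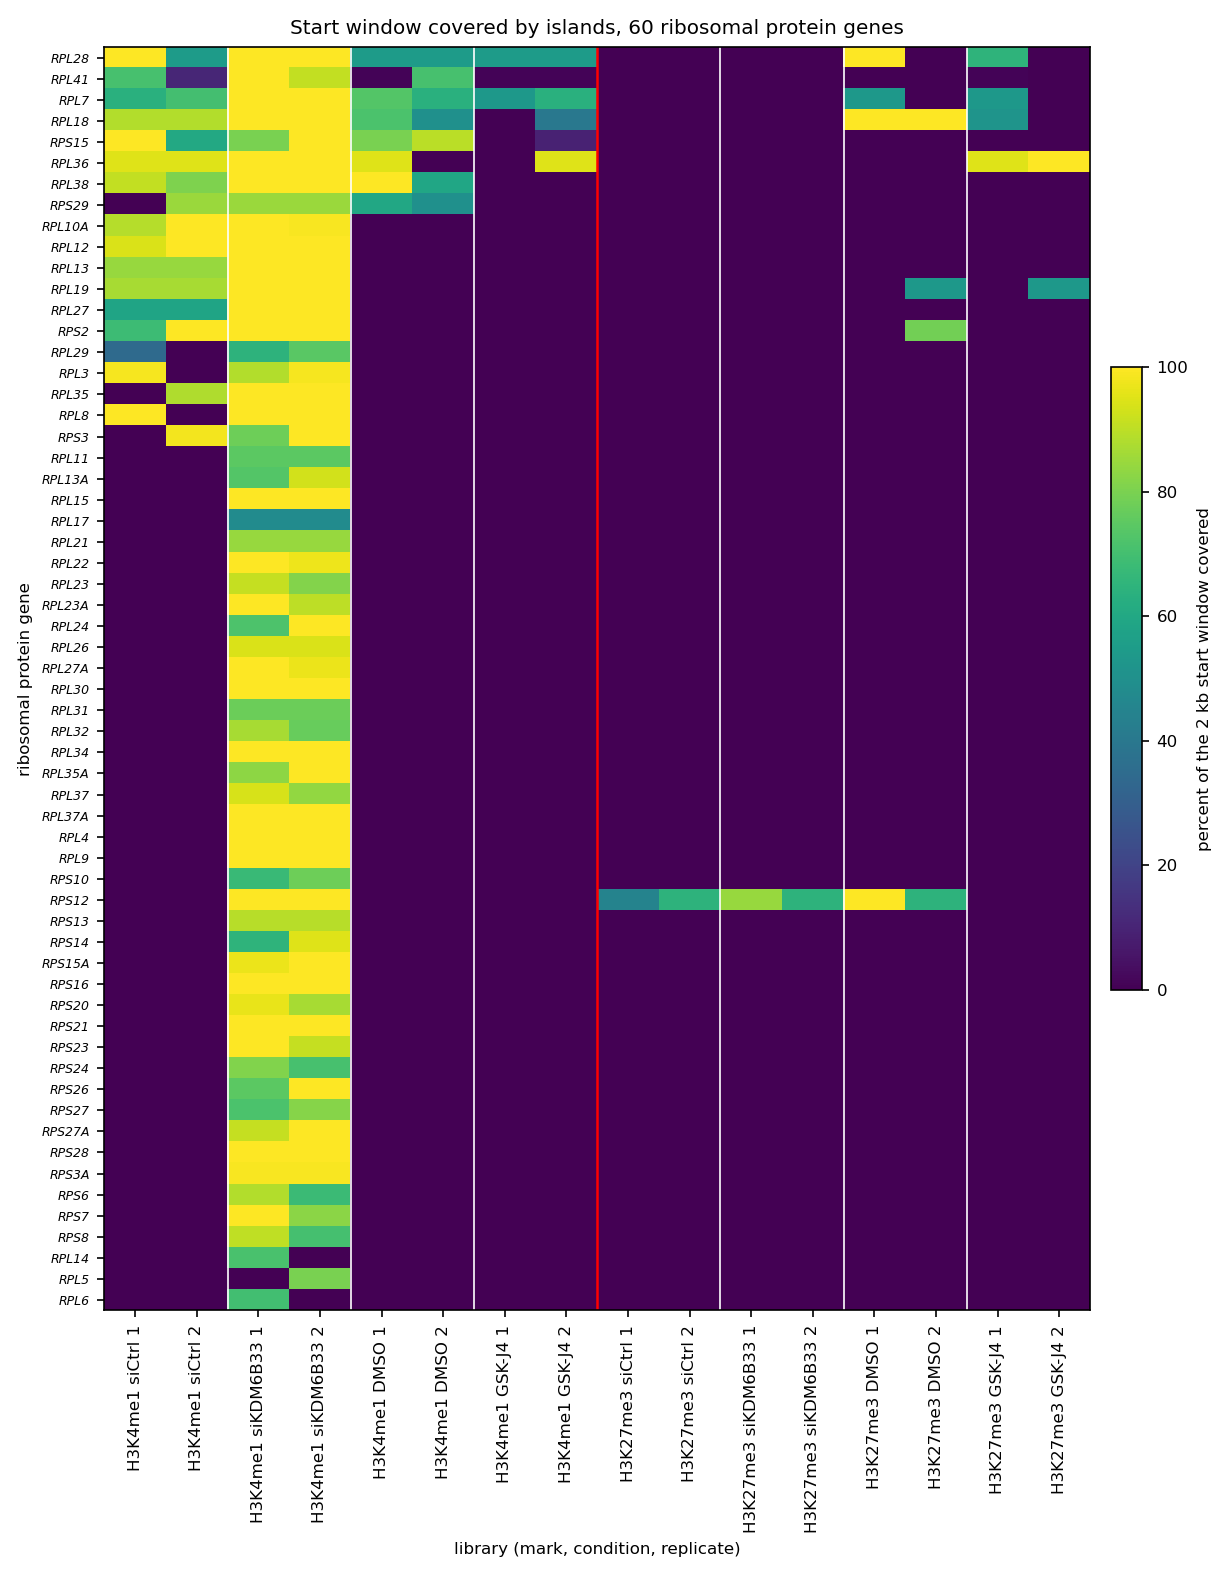
Percent of the 2 kb start window covered by islands for 60 ribosomal protein genes (rows) in the 16 libraries (columns), from 0 (dark) to 100 (yellow). The red line parts H3K4me1 (left) from H3K27me3 (right), and white lines part the conditions. The 38 members that gained H3K4me1 form the block that is dark in all libraries on the left but the siKDM6B33 pair, and RPS12 is the row marked across 6 of the H3K27me3 libraries.

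The 16 members marked in all 4 libraries of the knockdown experiment included RPL7, RPL10A, RPL12, RPL13, RPL18, RPL19, RPL27, RPL28, RPL36, RPL38, RPL41, RPS2 and RPS15. Their median length was 4055 bp against 5679.5 bp for the 38 that gained, and 7 of the 16 lie on chromosome 19 against 3 of the 38. Large-subunit genes made up 12 of the 16 and 20 of the 38. These are descriptions of groups set by the same islands. Chromosome 19 holds 12 members, of which 7 and 7 were marked in siCtrl and 10 and 10 after knockdown, while on the other autosomes 12 and 12 of 57 were marked in siCtrl and 52 and 51 after knockdown.

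In the knockdown experiment the islands over member starts were long and lay mostly downstream. After knockdown 61 and 60 member starts fell inside an H3K4me1 island, whose median width was 7200 and 7100 bp, against 4200 and 4200 bp for the islands over all gene starts. The median reach was 5136 and 5284 bp past the start and 1146 and 1080.5 bp before it. Over all genes it was 2533 and 2514.5 bp past the start and 1296 and 1305 bp before it. The islands took in a median of 87% and 91.6% of the member gene, and 25 and 29 of them (41% and 48.3%) ran beyond its last base. Over all genes, which are longer, they took in 8.3% and 8.05%, and 9.23% and 9.11% ran beyond the end. In the compound experiment the few member starts inside an H3K4me1 island, 8 and 9 in DMSO and 3 and 4 with GSK-J4, had islands of 3000, 2800, 2000 and 2300 bp in median width that reached further before the start (1274.5, 1090, 1899 and 1119 bp) than past it (482, 267, 101 and 250.5 bp).

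The flanks carried the same asymmetry. H3K4me1 covered 25.2% ± 1.57 (SD, n = 2) of the members' downstream flanks in siCtrl and 74.9% ± 0.308 (SD, n = 2) after knockdown, where all genes went from 11.8% and 11.5% to 28.7% and 28.5%. Upstream flanks were covered over 8.13% ± 0.487 and then 19.4% ± 0.021 (SD, n = 2), where all genes went from 9.14% and 8.77% to 15.9% and 15.8%. The downstream values were apart and higher after knockdown at 45 members (65.2%), against 38.2% of all genes, and lower at 0, against 2.11% of all genes. Even in siCtrl the members' downstream flanks were covered more than the average gene's, while their upstream flanks were not.

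Single genes show the reach. The downstream flank of RPL11 was covered over 0% and 0% in siCtrl and 100% and 100% after knockdown, and that of RPS14 over 0% and 0%, then 100% and 100%. RPL5, whose start window was marked in 1 library only, had 70% and 95.1% of its downstream flank covered after knockdown and 0% and 0% before. RPL13A had 91.6% and 91.6% in siCtrl without a start island, and 100% and 100% after knockdown. The mark thus stood downstream of RPL13A in controls, and over its start after knockdown too.

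**Figure D3:**
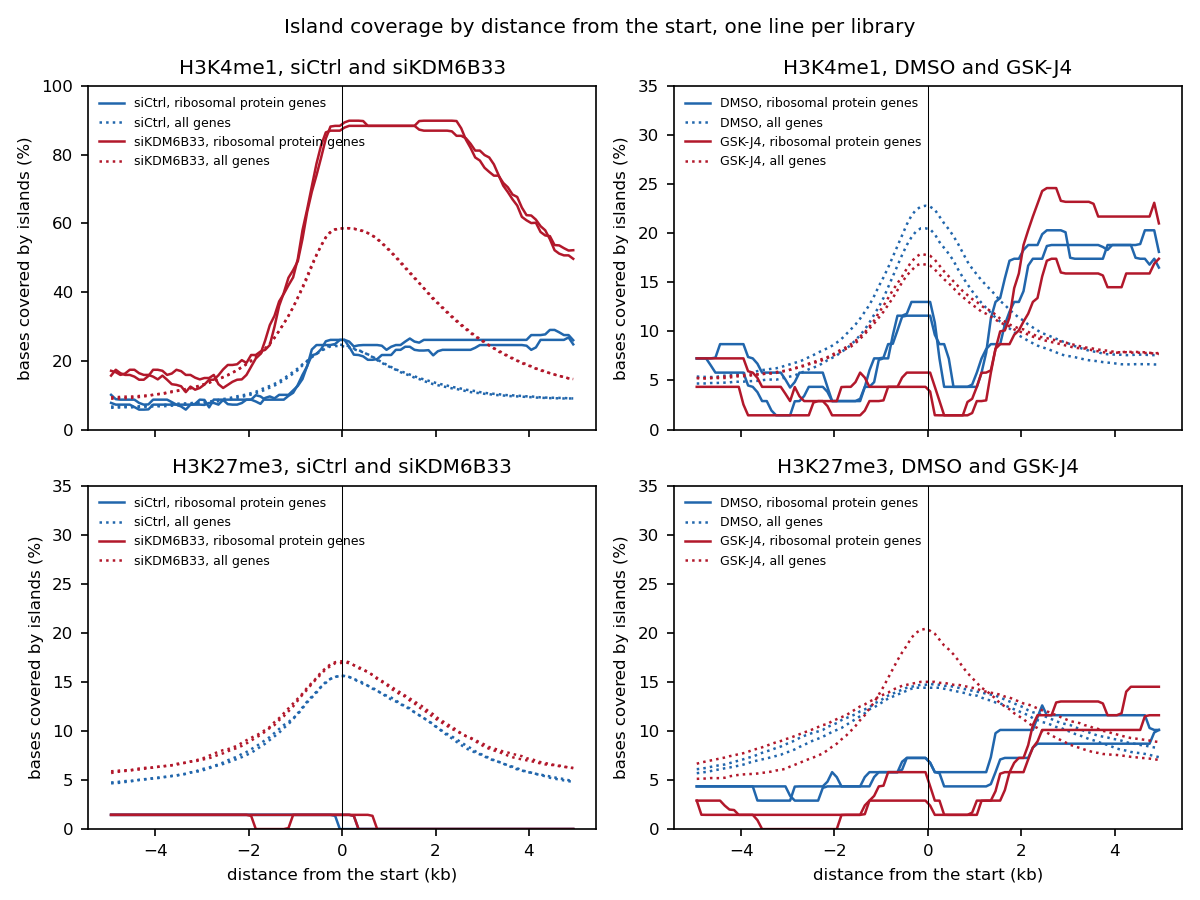
Percent of bases covered by islands in 100 bp bins from 5 kb before to 5 kb after the start, in the direction of transcription, averaged over the 69 ribosomal protein genes (solid) and all autosomal protein-coding genes (dotted), with 1 line for each library. Controls are blue and treated libraries red, and the panel for H3K4me1 in the knockdown experiment has its own scale. Solid red lines there peak at 89.9% and 88.4% at 150 bp after the start and are at 78.3% and 81.2% at 2950 bp, where the dotted red lines are at 26.4% and 26.2%.

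Narrow peaks gave a smaller difference in number. A narrow peak overlapped the window of 27 and 28 members in siCtrl and of 56 and 53 after knockdown. All genes went from 46.1% and 45.7% to 64.5% and 64.3%, so fewer members (39.1% and 40.6%) than genes at large had a narrow peak in siCtrl. A peak was gained at 16 members (23.2%), against 11.3% of all genes, and lost at 0, against 0.692% of all genes. Of the 38 members that gained an island, 11 had a narrow peak in both siCtrl libraries and 13 in neither.

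The height of a summit is given as fragments piled up at it over the genome background of its library. In 17 members a summit stood in the window in all 4 libraries, with a median height of 66.5 and 82.5 times background in siCtrl and 224 and 209 after knockdown, and all 17 were apart and higher. Of the 6300 genes at large with a summit in all 4 libraries 87.8% were apart and higher, with medians of 66.5 and 70.7 in siCtrl and 187 and 190 after knockdown. The taller summits were thus common to most gene starts that could be compared. RPL7, a large-subunit protein that binds near the 5S rRNA, had 144 and 130 times background in siCtrl and 411 and 419 after knockdown. Its start window held an island in all 4 libraries.

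RPL7 and the 3 genes that follow were picked for summits that were tallest in the knockdown libraries, so their heights are a description. RPL28 had 177 and 271 times background in siCtrl and 383 and 390 after knockdown. RPS29 had 77.6 and 118, then 337 and 333, and RPL37 had 66.5 and 82.5, then 327 and 333. RPS29 is among the 6 members with an island in 1 of the 2 siCtrl libraries.

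Summits lay before the start more often than after it. After knockdown 87 of 122 and 89 of 128 summits in member windows lay upstream, so that 28.7% and 30.5% lay downstream, where 48.7% and 48.4% of the summits at all genes did. In siCtrl 14% and 23.8% of member summits lay downstream, against 38.2% and 37.7% at all genes. Islands over members thus extended downstream while the sharpest signal inside the window lay upstream, and 44.3% and 44.5% of the summits after knockdown lay within 200 bp of the start, against 33% and 33.6% at all genes.

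RPL7 was the member with a narrow peak summit in its window in all 16 libraries. In the compound experiment its H3K4me1 summits stood at 176 and 248 times background in DMSO and 164 and 179 with GSK-J4, and the groups overlapped. Its H3K27me3 summits stood at 75.9 and 125 in siCtrl, 130 and 75.6 after knockdown, 134 and 207 in DMSO and 118 and 242 with GSK-J4. Summits of both marks were thus called at RPL7 in every condition, with more spread between replicates than between conditions for H3K27me3. In the knockdown experiment no H3K27me3 island lay in its window. Over the members with a summit of this mark, the median height was only 2 to 4 fragments in each library.

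Other genes of protein synthesis gained H3K4me1 at like shares. Of 18 cytosolic ribosome genes outside the rule, among them the acidic stalk genes, the X-linked members and paralogs, 11 gained H3K4me1 at the start after knockdown (61.1%). Of 75 mitochondrial ribosomal protein genes 47 gained it (62.7%), of 34 translation factor genes 16 (47.1%), and of 26 ribosome biogenesis genes 14 (53.8%). Losses were called at 0 genes of these 4 lists. The share of members that gained, 55.1%, thus lay inside the range of these lists, 47.1% to 62.7%, and all lay above the 31.2% of all genes. Of 1430 annotated autosomal pseudogenes named after a gene with such a symbol, X-linked genes included, 21 gained an island (1.47%).

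**Figure D4:**
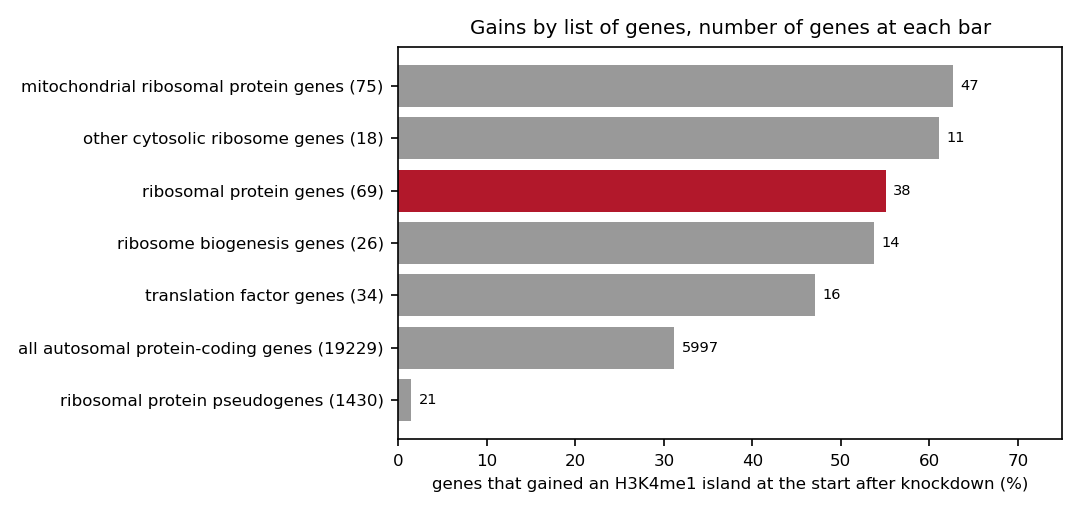
Percent of genes in each list that gained an H3K4me1 island in the start window after KDM6B knockdown, with the number of genes at the end of each bar and the size of the list in brackets. The ribosomal protein genes (red, 38 of 69) lie among the other lists of protein synthesis genes, between 47.1% and 62.7%, above all genes at 31.2% and far above the pseudogenes at 1.47%.

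The lists differed on the downstream flank. In siCtrl the mean covered share there was 26.3% and 24.1% in the members, 5.56% and 2.95% in the other cytosolic ribosome genes, 7.48% and 6.6% in the mitochondrial list, 18.1% and 14.6% in the translation factors and 5.02% and 2.69% in the biogenesis list. After knockdown it was 75.1% and 74.7%, 50.5% and 51.3%, 40.2% and 40%, 61.3% and 64.1%, and 50.6% and 51.6% in the same order. The ribosomal protein genes had the highest value of the 5 lists in each of the 4 libraries.

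With GSK-J4 fewer ribosomal protein gene starts than in DMSO held an H3K4me1 island, and few did in either condition. The mark lay in the window of 9 and 9 members in DMSO and of 4 and 6 with GSK-J4, 13% and 13% against 5.8% and 8.7%. All genes went from 24.2% and 22% to 18.6% and 19.4%, so the members lay below the average gene in all 4 libraries. By narrow peaks with a −log10 q of 5 or more the direction turned, from a mean of -4 members for GSK-J4 minus DMSO to 1. The mean covered share of the window was 8.63% ± 0.0231 (SD, n = 2) in DMSO and 3.43% ± 0.563 (SD, n = 2) with GSK-J4. The islands covered 77.7 and 68 Mb in DMSO and 76.1 and 77.3 Mb with GSK-J4, and the genome background was 0.0569 and 0.0483 against 0.0547 and 0.0559 tags.

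Losses were called at 3 members (4.35%), where 2.34% of all genes lost the mark, and gains at 0 members, where 0.541% of all genes gained it. Without the second GSK-J4 library 5 members were called lost, and the share over all genes for that setting is not given here. RPS29, a zinc-binding small-subunit protein, was covered over 60% and 50% in DMSO and 0% and 0% with GSK-J4. RPL38, which in the mouse embryo is needed for translation of Hox messages, went from 100% and 59.2% to 0% and 0%. The groups were apart at both genes, and the exact permutation p was 0.333 for each, the smallest that 2 against 2 allows. At equal covered length 2 members were called lost, where 2.94% of all genes were. They were RPL38, with its values unchanged, and RPS15, while RPS29 stood at 0% and 50% in DMSO and at 0% in both GSK-J4 libraries. Its groups then overlapped, and its loss was no longer called. Among the other lists the mark was lost at 0 of 18 cytosolic ribosome genes outside the rule, 1 of 75 mitochondrial ribosomal protein genes, 2 of 34 translation factor genes and 2 of 26 ribosome biogenesis genes.

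By covered percent the GSK-J4 values lay below both DMSO values at 5 members (7.25%), against 4.53% of all genes, and above them at 0, against 1.45% of all genes. Beside the 3 losses there were RPL18, at 71.7% and 50% in DMSO and 0% and 40% with GSK-J4, and RPS15, at 79.7% and 89.7% in DMSO and 0% and 9.7% with GSK-J4. RPL7 and RPL28 stayed marked in all 8 H3K4me1 libraries. RPL7 was covered over 73.3% and 63.4% in DMSO and 53.4% and 63.4% with GSK-J4, and RPL28 over 55% in all 4. RPL41, the smallest ribosomal protein, also had an island in all 8, but only 0.8% of its window was covered in 3 of the 4 compound libraries and 70.8% in the second DMSO library.

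Downstream of the members the mean H3K4me1 coverage was close in both conditions, while single members went both ways. The covered share of the downstream flank was 16.6% ± 0.865 (SD, n = 2) in DMSO and 16.2% ± 4.1 (SD, n = 2) with GSK-J4, a difference smaller than the spread. Single members ranged from -40.1 to 40 points for GSK-J4 minus DMSO. In 10 members at least 50% of this flank was covered in all 4 compound libraries, among them RPL3, RPL8, RPL13, RPL18, RPL28, RPL36, RPL38, RPS2 and RPS3. That is 14.5% of members and 5.66% of all genes. In 5 of them, RPL3, RPL8, RPL13, RPS2 and RPS3, the start window held no island in any of the 4 libraries, a pattern at 7.25% of members and 0.213% of all genes.

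RPL3 is an example. Its downstream flank was covered over 74.3% and 64.3% in DMSO and 64.3% and 74.3% with GSK-J4, with 0% of the start window covered in all 4. RPS3 had 84% and 94% in DMSO and 74% and 74% with GSK-J4, again with no start island. In these genes the mark began past 1 kb from the start in the compound experiment.

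H3K27me3 was sparse at the ribosomal protein genes with and without knockdown. An island lay in the start window of 1 member, RPS12, in each siCtrl and each siKDM6B33 library (1.45%), where the mark lay at 16.4% and 16.5% of all genes in siCtrl and at 17.8% and 17.8% after knockdown. Gains were called at 0 members, against 1.31% of all genes, and losses at 0, against 0.432%. At equal covered length both member counts were again 0, while over all genes gains made up 0.192% and losses 3.56%. The downstream flank was covered over 0% in all 4 libraries at each of the 63 members with an island within 20 kb of the start, where all genes had 8.18% and 8.22%, then 9.4% and 9.23%. Narrow peaks were called at more members, 9 and 7 in siCtrl (13% and 10.1%) and 12 and 12 after knockdown (17.4% and 17.4%), with median heights of 2 to 3 fragments. Of all genes 21.7% and 21.5% had one in siCtrl and 25.5% and 26.1% after knockdown, so the members lay below them. By genome background the knockdown libraries were the deeper ones for this mark too, with 0.0539 and 0.0529 tags against 0.0395 and 0.0401 in siCtrl. They held 15947 and 15775 islands against 10555 and 10592, and the part that depth plays in these numbers was not tested.

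RPS12, a small-subunit gene on chromosome 6, was the exception. H3K27me3 covered 44.6% and 64.7% of its window in siCtrl and 84.7% and 64.7% after knockdown, and the groups overlapped. At equal covered length the difference of 20 points turned to -22.3, and the first siKDM6B33 library then held no H3K27me3 island at any member start. Upstream the mark filled 100% and 100% of the flank in siCtrl and 80% and 100% after knockdown, while downstream it covered 0%. In DMSO it covered 100% and 64.7% of the window, and with GSK-J4 0% and 0%. At equal covered length DMSO stood at 100% and 0%, the difference moved from -82.3 to -50 points and the groups overlapped. The same gene gained H3K4me1 over its whole window after knockdown, and with the lists as deposited both marks were called over its start in the siKDM6B33 libraries, which come from separate cells.

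In the compound experiment H3K27me3 lay at the start of 5 and 5 members in DMSO and of 5 and 2 with GSK-J4, 7.25% and 7.25% against 7.25% and 2.9%. All genes had 14.8% and 15.1%, then 21.8% and 15.4%. The mean difference of -1.5 members turned to 2.5 by narrow peaks and to 3 by those with a −log10 q of 5 or more. It was -3 without the first GSK-J4 library and 0 without the second. The mark was gained at 1 member, RPL36 (1.45%), against 0.837% of all genes, and lost at 1 member, RPS12 (1.45%), against 0.14% of all genes. RPL36, a large-subunit gene on chromosome 19, was covered over 0% and 0% in DMSO and 95.2% and 100% with GSK-J4. RPL18 was covered over 100% and 100% in DMSO and 51.7% and 0% with GSK-J4. At equal covered length the 1 gain was again RPL36, but the 1 loss was RPL18, at 100% and 100% in DMSO and 0% and 0% with GSK-J4, and no longer RPS12. Over all genes 0.265% gained and 0.172% lost the mark in that setting. Leaving out the first GSK-J4 library, which stood apart, gave 1 gain and 2 losses, with RPL36 at 100% and RPS12 at 0% in the library that remained. Without the second GSK-J4 library the gains were 2 and the losses 1, and the losses were 3 without the first DMSO library and 2 without the second. The shares over all genes with 1 library left out are not given here.

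At 59 of the 69 members, the 6 starts not analysed here included, no H3K27me3 island was called at the start in any library of this experiment, and most of the other marked starts were marked in 1 library of a pair. RPL28 had 100% and 0% in DMSO and 65% and 0% with GSK-J4, and RPL7 had 53.4% and 0% in both conditions. RPS2 was marked in 1 DMSO library and RPL41 in 1 GSK-J4 library. RPL19 was marked in 1 library of each condition. These starts differed as much between replicates as between conditions.

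At the downstream flank the H3K27me3 islands of the compound experiment fell on the members that also carried H3K4me1 there. Members with at least 50% of this flank under H3K27me3 numbered 8 and 6 in DMSO and 9 and 7 with GSK-J4, of which 7, 6, 9 and 7 had as much H3K4me1 in the library of the same condition and number. That is 87.5%, 100%, 100% and 100% of the members under H3K27me3, where over all genes the shares were 52.7%, 46.4%, 63.1% and 50.7%. As shares of the members under H3K4me1 they were 53.8%, 46.2%, 81.8% and 41.2%, where over all genes they were 58.9%, 64.6%, 64% and 63.4%, so by this denominator the members lay below all genes in 3 of the 4 pairs. In 4 members, RPL3, RPL13 and RPL18 among them, both marks lay on at least 50% of the flank in all 4 pairs, 5.8% of members against 3.36% of all genes. The 2 marks come from separate libraries of separate cells, so that overlap says nothing of single nucleosomes. In the knockdown experiment fewer of all genes with H3K27me3 on this flank had as much H3K4me1. The shares were 14% and 13.9% in siCtrl and 22% and 22.8% after knockdown.

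RPL3 had 64.3% and 69.3% of its downstream flank under H3K27me3 in DMSO and 69.3% and 69.3% with GSK-J4. RPL13 had 92.2% and 87.2%, then 57.2% and 87.2%. In the knockdown experiment both were at 0% in all 4 H3K27me3 libraries. The experiments were separate, with their own controls, and this difference between them was not tested.

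**Figure D5:**
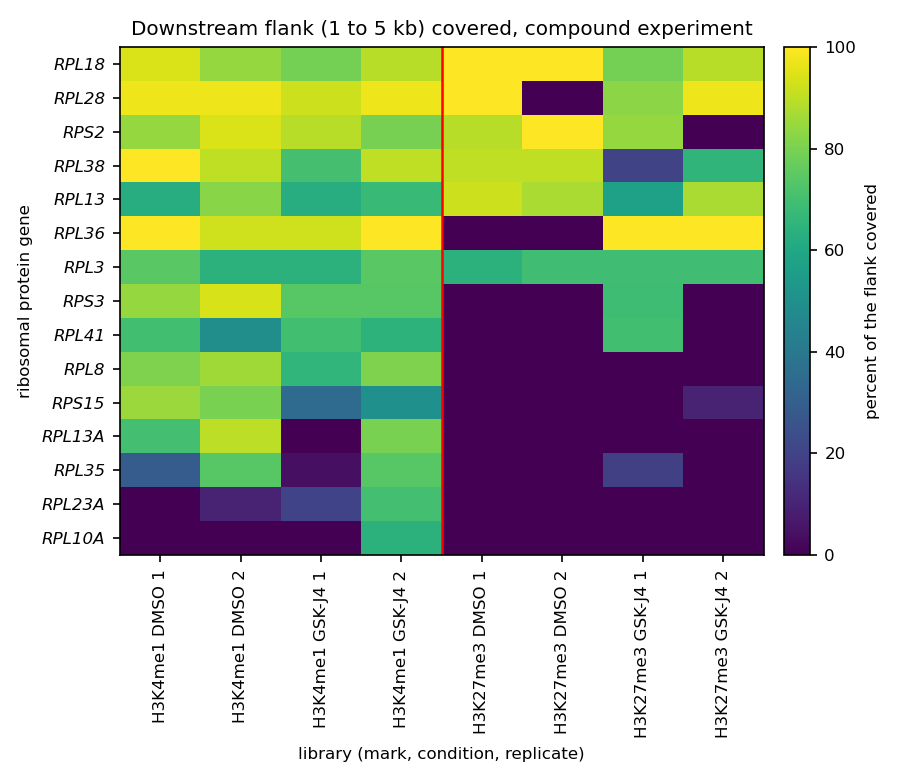
Percent of the downstream flank, 1 to 5 kb past the start, covered by islands in the 8 libraries of the compound experiment, from 0 (dark) to 100 (yellow), for 15 of the 17 ribosomal protein genes with at least 50% in any of them. H3K4me1 is left of the red line and H3K27me3 right of it. RPL18, RPL13 and RPL3 are at 50% or more in all 8 columns, while RPS3, RPL8, RPS15 and RPL13A are marked mostly on the left.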

How the data were processed

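Processed files of 16 CUT&Tag libraries of BE2C cells were analysed. The submitters' processing notes name the build hg19 and the tools Trim Galore 0.4.4, BWA 0.7.12, Picard 1.65, SAMtools 1.3.1, bedtools 2.25.0, MACS2 2.1.1 and SICER 1.1, and lists were made separately for each library. The authors deposited SICER islands with a score, and MACS2 narrow peaks with a score, a fold enrichment over the local background, and −log10 p and −log10 q values. Uniquely mapped fragments without duplicates were kept, so sequence held more than once in the genome is lost, and island number rises with depth.

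Gene starts came from GENCODE version 44 lifted to hg19, 1 start a gene (canonical transcript). Coverage was computed with Python 3.11.15, NumPy 2.4.6 and pandas 2.3.3. Pileup and background at summits were solved from the deposited fold and −log10 p values under a Poisson model. Single members were compared by a two-sided exact permutation test on 2 against 2 libraries. Gene names in the text are a fixed set of 10, members gained or lost (at most 10 a comparison, largest difference first), members with H3K27me3 in both libraries of a group, members with H3K4me1 in none or all libraries, and the 5 tallest summits for each mark and experiment. Others were chosen after their values were seen. Members and lists were chosen with earlier results of these data known. The setting without starts lacking an island within 20 kb was added after the data were seen. The code was tested on simulated data. Values of some genes are not reported here.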

Additional observations from a re-analysis of the deposited data

Results flagged for a closer look

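The number of ribosomal protein genes with an H3K4me1 island in the start window differed in sign between the experiments, with a mean of 42.5 more members after knockdown than in siCtrl and a difference of -4 members for GSK-J4 minus DMSO. Both knockdown libraries lay above both controls, and both GSK-J4 libraries below both DMSO libraries. Single members with non-overlapping groups of opposite sign were RPL38 and RPL18, 2 of 69 (2.9%), where 339 of 19229 genes (1.76%) showed such a pattern. At RPL38 the covered percent of the window was 14.2 points higher after knockdown, and with GSK-J4 the difference was -79.6 points. At RPL18 it was 11.7 points higher after knockdown, and with GSK-J4 the difference was -40.9 points. With a window of 500 bp on each side the knockdown difference was 0 at both genes, so the opposite sign at them depends on the window width. At equal covered length the GSK-J4 difference at RPL18 was -25 points, with 0% and 50% in DMSO and 0% and 0% with GSK-J4, and its groups overlapped. The difference between the experiments was not tested, and each experiment had its own controls and its own depth.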

How the results depend on the processing

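For H3K4me1 after knockdown, the mean number of members with a start island was 42.5 higher in treated libraries, and 43.5 higher at equal covered length. It was 27 by narrow peaks and 33.5 when a −log10 q of 5 or more was asked of each narrow peak, and gains were 38 by islands, 16 and 25 by these peaks. The flanks (both together) were 30.5 points higher, 29.2 with every annotated start, 33.4 without the 6 far members, and 1.39 and 1.07 by the narrow peaks, which are short. With GSK-J4 the H3K4me1 difference of -4 members was -5.5 when islands had to cover 50% of the window and turned to 1 by the stricter peaks. Gains were 1 and losses 1 by those peaks, and losses 5 with the 50% rule. For H3K27me3 after knockdown the difference of 0 members was 0.5 with the 50% rule, -0.5 at equal length, and 4 and 2 by the narrow peaks, with 3 and 1 gains and 1 loss by all peaks, and the flanks moved from -0.0725 to -0.362 points at equal length. At RPS12 the difference of 20 points turned to -22.3 at equal length. With GSK-J4 the H3K27me3 difference of -1.5 members turned to 2.5 and 3 by the narrow peaks, losses were 0 by the stricter ones, and the flanks turned from -1.29 to 0.0255 and 0.0107 points. The cause of these turns was not tested. With the replicate block the mean differences were the same 42.5, -4, 0 and -1.5 members, since pairing does not change a mean, and the smallest exact p of 2 pairs is 0.5. Leaving out 1 library gave 42 to 43 members and 39 to 41 gains for H3K4me1 after knockdown. With GSK-J4 it gave -5 to -3 members and 3 to 5 losses for H3K4me1, and -3 to 0 members, 1 to 2 gains and 1 to 3 losses for H3K27me3. Shares over all genes with 1 library left out are not given here, so these counts have no background beside them. A further 81 of the summary values under the alternatives stayed within 1.5 times the reported count or within the spread between replicates. Low pileup limits what narrow peaks show, and a start without an island is not a start without the mark.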

Other observations

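Pseudogenes are the other loci that share sequence with the ribosomal protein genes. All 69 members have at least 1 annotated pseudogene named after them. With the same windows, 1430 autosomal pseudogenes were measured, among them those named after X-linked genes outside the 69. Between siCtrl and siKDM6B33 their mean covered downstream flank was 2.11% and 1.96%, then 3.41% and 3.61% for H3K4me1. With GSK-J4 0 of them gained and 0 lost an H3K4me1 island at the start. Uniquely mapped fragments alone were kept, so signal at recent copies is lost, and its level was not tested.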
